A study of Mus musculus with 8 samples.

Results

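The Usp genes encode the ubiquitin-specific proteases, the most numerous family of deubiquitinases, here measured in mouse oocytes with and without Dicer. A gene belonged to the set when the platform annotation gave its probe set a single symbol made of Usp and a number, and symbols of the rodent Usp17l cluster were left out. This gave 50 genes of 18193 with a single symbol. For each gene, the brightest probe set by its mean over the 8 arrays stood for the gene, and the 50 genes had 127 probe sets between them. The set is a set of names, and not all of its genes encode proteases. Usp6nl encodes a GTPase activator of Rab proteins, and Usp46os2 is an opposite-strand transcript of Usp46. Usp39, Usp50, Usp53 and Usp54 have long been regarded as lacking protease activity. Usp35, Usp41 and Usp51 were not analysed here.

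The samples were fully grown oocytes with an intact germinal vesicle, collected from 4 Dicer knockout females and 4 wild-type females of a 129/C57BL6 background. All mice had received equine chorionic gonadotropin, and pipetting removed the cumulus cells attached to the oocytes of both genotypes. From each mouse, 20 oocytes gave the RNA for 1 Affymetrix array, after linear amplification in 2 rounds. The labels give neither the deleted exons, nor the promoter behind the deletion, nor the age of the mice. Values are log2 signals, so a difference of 1 is a doubling, and signals of different genes are not comparable as RNA amounts. Array medians lay between 6.38 and 6.43 in Dicer knockout and between 6.35 and 6.40 in wild type, and 4 arrays per group limit the precision. Mice are the replicates, and p-values weigh the difference between genotypes against the spread between arrays of a group. For each probe set, limma draws its estimate of that spread towards the level over all probe sets. Its SE, interval and p can therefore differ from what the SDs of the groups alone would give. With 1 array per mouse, the spread between arrays cannot be split into mouse and technical parts. The Dicer1 transcript itself gave more signal in Dicer knockout than in wild type (14.26 to 14.36, against 13.04 to 13.31 in wild type, for the brighter of its 2 probe sets), and since the deleted part is not given, this probe set does not check the genotype.

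Ubiquitin is attached to proteins by a cascade of activating, conjugating and ligating enzymes, and chains of it mark proteins for the proteasome or alter their activity and location. Ubiquitin-specific proteases are cysteine proteases that cut ubiquitin off again, and most act on particular substrates or at particular places, such as chromatin, the endosome, the mitochondrion or the proteasome itself. A fully grown oocyte is transcriptionally quiet and stores its transcripts, and protein breakdown by the ubiquitin system drives its later passage through meiosis.

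The samples were checked against cell type markers. Genes of the oocyte such as Gdf9 and Zp3 were bright in both groups, and the mean log2 signal of 10 oocyte markers was 13.5 on each knockout array and 13.5 to 13.6 in wild type. Of the 10, Ddx4 rose by 0.89 (adjusted p = 0.0324), Mos fell by 0.36 (adjusted p = 0.00781) and Dppa3 fell by 0.30 (adjusted p = 0.0233). Of 11 cumulus and granulosa cell markers, read by their brightest probe sets, 6 fell (Cyp11a1, Inha, Npr2, Hsd17b1, Fshr and Nr5a2) and none rose. The mean log2 signal of the 11 was 7.97 to 8.28 in knockout and 8.44 to 8.91 in wild type, without overlap. Their summed linear signal was 4100 to 5360 in knockout and 5950 to 8680 in wild type. A dimmer Cyp11a1 probe set rose by 0.31 (adjusted p = 0.0276), and its remaining one differed by -0.46 and did not pass. The other Nr5a2 probe sets differed by -0.29 to 0.115 and did not pass. Inha averaged 9.91 and 10.91 and Fshr fell by 0.50, while Amh and Foxl2 differed by -0.02 and -0.01. The part of these markers in the falls of Usp genes was not tested, and fewer cells of a type and less RNA per cell cannot be told apart in such samples. Of 7 blood and vessel markers 1 rose (Cd68) and 2 fell (Tek and Kdr). Their mean was 6.85 to 6.92 in knockout and 6.85 to 7.01 in wild type. Beside these marker lists, 8.18% of all genes rose and 12.8% fell.

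Of the 50 Usp genes, Usp12, Usp14 and Usp42 rose in Dicer knockout oocytes and Usp6nl, Usp33, Usp3 and Usp39 fell (limma, adjusted p under 0.05 over all probe sets). That is 6% higher and 8% lower, beside 8.18% of all genes higher and 12.8% lower. In either direction it is 14%, beside 21% of all genes, so the share of Usp genes that passed was not above that of genes at large. Differences were small. The widest was the fall of Usp6nl by 0.95 on the log2 scale, and 2 of the 50 genes passed with a change of at least 1.5-fold, 4% beside 10.7% of all genes. In 14 of the 50 genes (28%) the knockout and wild-type values did not overlap, beside 26.2% of all genes. At an unadjusted p under 0.05, 21 of the 50 genes (42%) would be counted, beside 34.7% of all genes.

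Most Usp genes that did not pass had a slightly lower mean in knockout. Differences were negative in 35 of 50 genes (70%), against 49.6% of all genes, with a median of -0.11 over the Usp genes and 0.00 over all genes. The Usp probe sets were also brighter than most: 31 of 50 had a mean signal of at least 10, against 26.3% of all genes. Among genes that bright, the median difference was -0.12 in the 31 Usp genes and -0.08 in all 4778. With cyclic loess scaling 29 of 50 differences were negative and the median was -0.03, and with equal array medians 37 of 50 and -0.14.

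**Figure D1:**
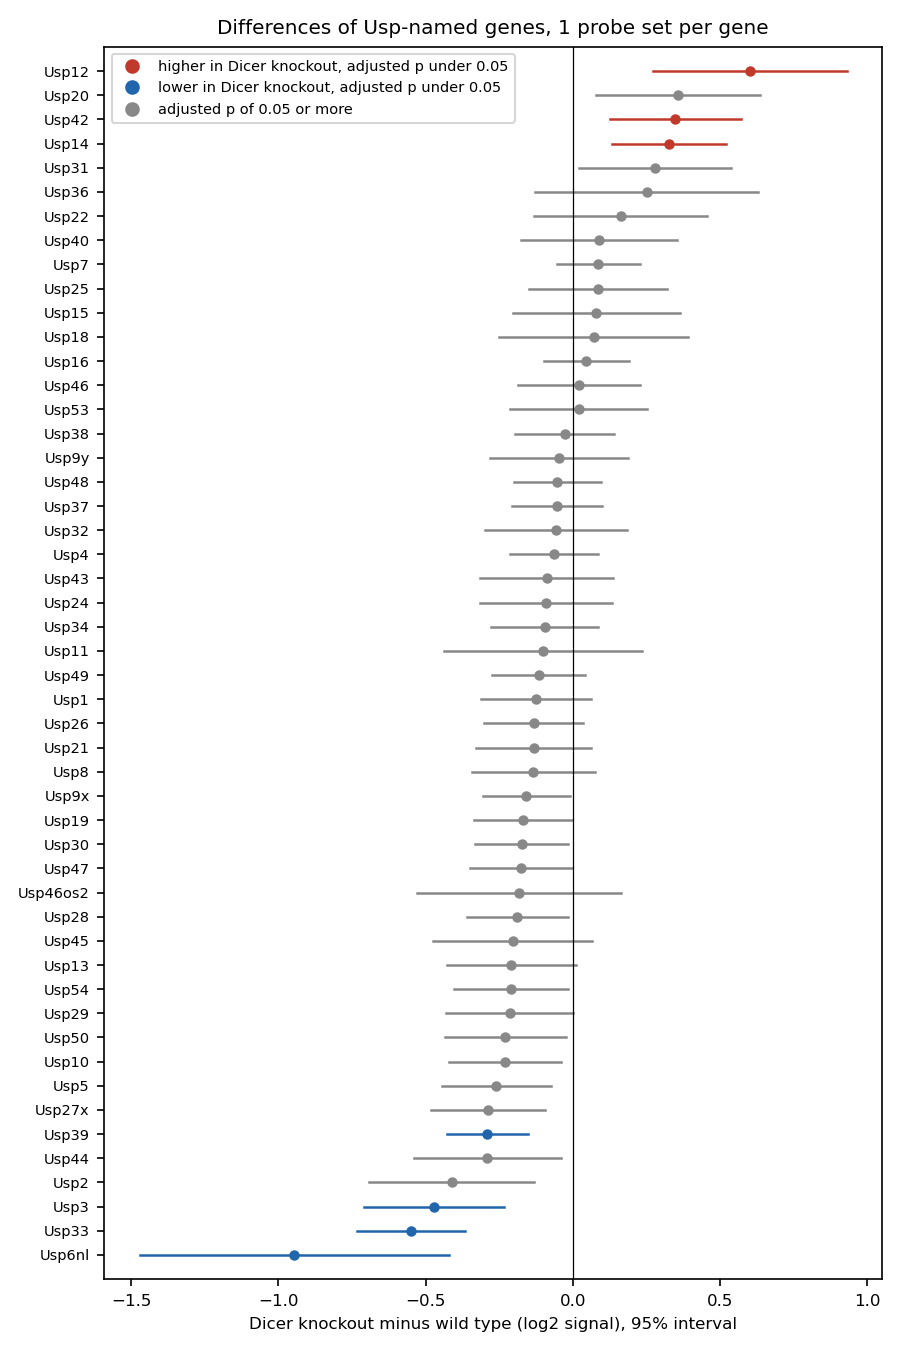
Difference in log2 signal, Dicer knockout minus wild type, for 50 Usp-named genes (1 probe set each, n = 4 and 4 arrays). Points are differences of group means, bars are 95% intervals from limma, and colours mark the adjusted p. Of the 50 points, 35 lie below 0, and 7 are coloured.

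The enzymes that recycle ubiquitin chains came out unalike. Usp14 sits on the proteasome and trims ubiquitin from proteins about to be degraded. Usp14 read 11.05, 10.98, 10.94 and 11.25 in the 4 Dicer knockout arrays, against 10.70, 10.78, 10.63 and 10.81 in the 4 wild-type arrays. Every knockout array was above every wild-type array. The difference was 0.33 ± 0.0864 (SE), or 1.25-fold (adjusted p = 0.0299), and a second of its 4 probe sets rose by 0.42 (adjusted p = 0.0104). The other two differed by 0.20 and 0.21 and did not pass. Usp5, which takes apart free ubiquitin chains, averaged 9.95 ± 0.122 in knockout and 10.21 ± 0.0807 in wild type (SD, n = 4 each), groups that did not overlap, and missed the threshold (adjusted p = 0.062). Usp13, its close relative, averaged 7.27 ± 0.0667 and 7.48 ± 0.186 and did not pass.

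Usp1, Usp12 and Usp46 share the WD-repeat activator Wdr48, and Usp12 alone of them passed. Usp12 read 8.41, 7.87, 7.96 and 8.02 in the 4 Dicer knockout arrays, against 7.81, 7.30, 7.30 and 7.47 in the 4 wild-type arrays. The groups did not overlap, and wild-type array 1 came within 0.1 of the lowest knockout array. The rise was 0.60 ± 0.147 (SE), or 1.52-fold (adjusted p = 0.0213). A second Usp12 probe set of nearly the same wild-type signal pointed the other way, with 7.15 ± 0.197 in knockout and 7.55 ± 0.229 in wild type (adjusted p = 0.071), and the third differed by -0.03, so the rise rests on 1 of 3 probe sets.

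Usp46 had one of the brightest signals of the set, with 13.24, 13.53, 13.47 and 13.36 in knockout arrays, against 13.21, 13.42, 13.51 and 13.38 in wild-type arrays. The groups overlapped throughout, and the 95% interval of the difference ran from -0.19 to 0.23. Usp1, which removes ubiquitin from the repair protein Fancd2 and from the replication clamp Pcna, differed by -0.12 (interval -0.31 to 0.06). Usp46os2 averaged 7.35 ± 0.289 in knockout and 7.53 ± 0.215 in wild type and did not pass.

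Among 9 deubiquitinases of histones H2A and H2B, 1 rose and 1 fell, beside 8.18% and 12.8% of all genes. Usp3, which removes ubiquitin from H2A, read 11.77, 12.16, 11.87 and 12.02 in the 4 Dicer knockout arrays, against 12.36, 12.26, 12.57 and 12.51 in the 4 wild-type arrays. All knockout values were below all wild-type values. The fall was 0.47 on the log2 scale (SE 0.106, adjusted p = 0.0149). Its 3 bright probe sets fell alike, by 0.47, 0.51 and 0.45, while its 2 dim ones, under 7 in both groups, differed by 0.04 and 0.06 and did not pass.

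Usp42, which acts on H2B and on p53, read 11.84, 11.60, 11.94 and 11.85 in knockout arrays, against 11.43, 11.65, 11.44 and 11.32 in wild-type arrays. Knockout array 2 lay below wild-type array 2, so the groups overlapped. The rise was 0.35 ± 0.0993 (SE), or 1.27-fold (adjusted p = 0.0405), in 1 of 2 probe sets. Usp22, the H2B protease of the SAGA complex, differed by 0.16 and did not pass. Usp27x, a relative of Usp22 on the X chromosome, averaged 10.50 ± 0.12 in knockout and 10.78 ± 0.106 in wild type without overlap and just missed (adjusted p = 0.0503), and its dimmer probe set fell by 0.46 (adjusted p = 0.0138). Usp16 (0.05), Usp21 (-0.13), Usp36 (0.25), Usp44 (-0.29) and Usp49 (-0.12) did not pass. Usp44, known for the spindle checkpoint, had a signal under 5 in both groups.

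**Figure D2:**
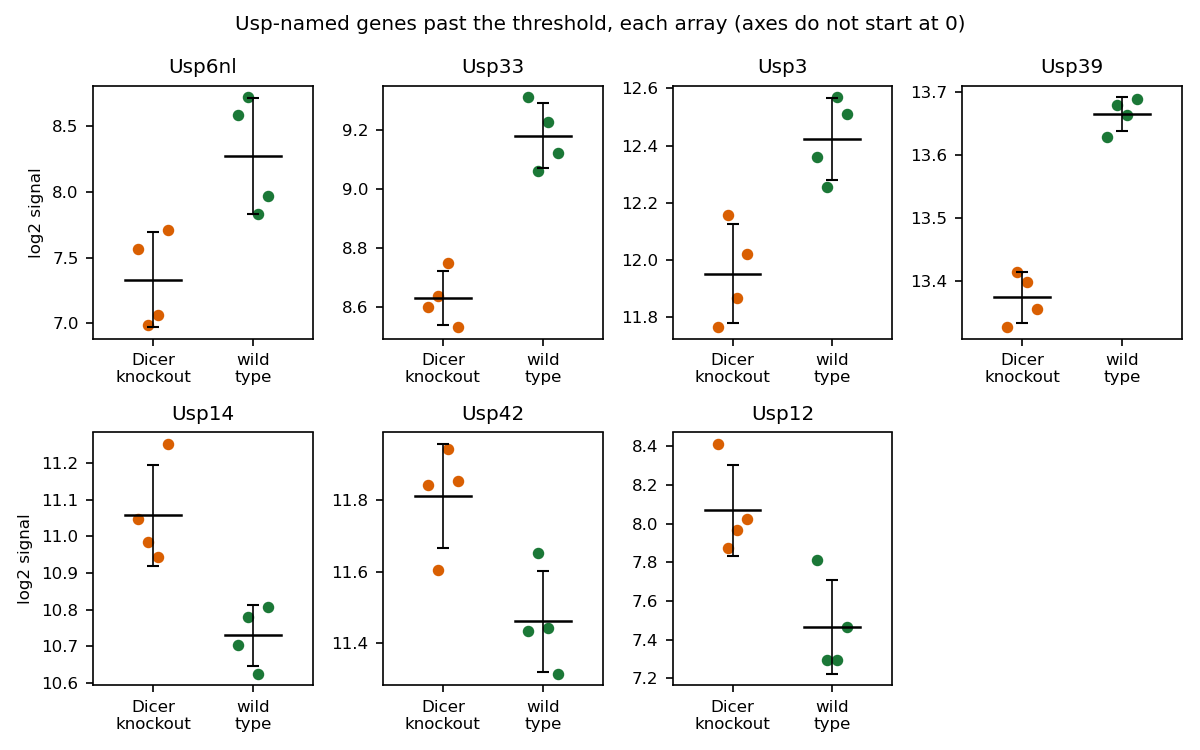
Log2 signal on each array for the 7 Usp-named genes past the threshold, Dicer knockout left and wild type right in each panel. Dots are arrays, horizontal lines are means and bars are SD (n = 4 each), and the axes do not start at 0. The groups are apart in 6 panels and overlap in that of Usp42.

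Of the 5 measured genes tied to organelles and the hypoxia response, Usp33 fell and none rose, beside 12.8% and 8.18% of all genes. Usp33, which acts on the beta-adrenergic receptor and on a centrosome protein, had the lowest p of the set. Usp33 read 8.60, 8.64, 8.75 and 8.53 in the 4 Dicer knockout arrays, against 9.31, 9.06, 9.23 and 9.12 in the 4 wild-type arrays. The gap between the groups was wider than the spread within either. The fall was 0.55 (SE 0.0819, adjusted p = 0.0017) in its only probe set. Usp20, the closest relative of Usp33, averaged 9.34 ± 0.246 in knockout and 8.98 ± 0.122 in wild type, with overlap, and did not pass (adjusted p = 0.0832). Usp30, which counters mitophagy on the outer mitochondrial membrane, differed by -0.17 in its brightest probe set and by -0.16 in the other. Usp19, anchored in the endoplasmic reticulum, differed by -0.17 and Usp38 by -0.03, and none of these passed.

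Of the genes long regarded as lacking protease activity, Usp39 and Usp6nl fell and Usp50, Usp53 and Usp54 did not pass. Among all genes, 12.8% fell. Usp39 is a part of the spliceosome with a USP fold. Usp39 read 13.33, 13.42, 13.40 and 13.36 in the 4 Dicer knockout arrays, against 13.63, 13.68, 13.66 and 13.69 in the 4 wild-type arrays. The spread within groups was the smallest of the 7 genes, with SDs of 0.0399 and 0.0261, and the groups were apart. The fall was 0.29 (SE 0.0618, adjusted p = 0.0113). The second Usp39 probe set differed by -0.23 and did not pass (adjusted p = 0.13), and the one that passed carries the suffix for probes shared with other sequences.

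Usp6nl read 7.57, 6.98, 7.06 and 7.71 in the 4 Dicer knockout arrays, against 8.59, 8.72, 7.83 and 7.97 in the 4 wild-type arrays. The groups were apart but loose, with SDs of 0.362 and 0.443. The fall was 0.95 (SE 0.234, adjusted p = 0.0225), a signal 1.93-fold lower in knockout. Its other two probe sets had lower knockout means too, by 0.32 and 0.30, and did not pass. Usp50 and Usp54 differed by -0.23 and -0.21 and Usp53 by 0.02. A probe set shared by Usp50 and Polr2l, which belonged to neither gene here, fell by 0.72.

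None of the 9 genes of the p53, DNA damage and cell cycle group passed in its brightest probe set, beside 21% of all genes. Usp2, known for its substrate cyclin D1, came closest, with 11.74 ± 0.24 in knockout and 12.16 ± 0.142 in wild type without overlap (adjusted p = 0.0532), while its second probe set differed by 0.03. Usp10, a p53 protease bound by G3bp proteins, differed by -0.23, Usp28 by -0.19 and Usp45 by -0.20. Usp24, Usp37 and Usp48 differed by -0.09, -0.05 and -0.05 in their brightest probe sets. Another Usp24 probe set pointed the other way, with 9.28 ± 0.156 in knockout and 8.93 ± 0.179 in wild type, groups that did not overlap, and missed the threshold (adjusted p = 0.0618). The dimmest of the 3 Usp48 probe sets differed by -0.21 without overlap and did not pass either (adjusted p = 0.102). Usp7 and Usp47 are described below.

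Of 7 genes of receptor sorting and of TGF-beta or Wnt signalling, none passed in its brightest probe set, beside 21% of all genes. In these probe sets, differences ran from -0.16 for Usp9x to 0.08 for Usp15. Dimmer probe sets of Usp9x and Usp34 fell and are described below. Usp8, the endosomal protease that binds Stam, differed by -0.13, and Usp4 and Usp11, relatives of Usp15, by -0.06 and -0.10. Usp32 differed by -0.06 and Usp34, which acts on axin, by -0.10. Usp18, which removes the ubiquitin-like modifier Isg15, read 4.81 ± 0.186 in knockout and 4.74 ± 0.27 in wild type, and the NF-kappaB regulators Usp25 (0.09) and Usp31 (0.28) did not pass.

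The remaining 5 genes are tissue-restricted or little studied, and none passed in its brightest probe set, beside 21% of all genes. Usp9y lies on the Y chromosome, which these females lack, and its probe set read 4.79 ± 0.116 in knockout and 4.84 ± 0.183 in wild type. Usp26 averaged 4.47 and 4.61 and the imprinted gene Usp29 6.61 and 6.82, and Usp40 and Usp43 differed by 0.09 and -0.09. In all, 4 of the 50 Usp genes (Usp9y, Usp18, Usp26 and Usp44) had a mean signal under 5. All 4 X-linked members (Usp9x, Usp11, Usp26 and Usp27x) had a negative difference, as did 70% of the 50 Usp genes. The median of the 4 was -0.14, beside -0.11 over the 50 Usp genes and 0.03 over all 617 X-linked genes. None of the 4 passed in its brightest probe set.

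Usp9x and Usp7 changed in probe sets other than the brightest. Over all 127 Usp probe sets, 8 rose (6.3%) and 15 fell (11.8%), beside 7.53% and 10.9% of all probe sets with 1 symbol. Counted by any probe set, 13 of 50 Usp genes passed (26%), beside 26.6% of all genes. Of the 10 Usp genes with 4 or more probe sets, 4 had one that passed, beside 47.5% of all genes with as many. The 6 genes added were Usp9x, Usp7, Usp27x, Usp29, Usp34 and Usp47.

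Usp9x, an X-linked protease that acts on the TGF-beta mediator Smad4 and in cell polarity, fell in 6 of 7 probe sets. Its brightest, which represented the gene above, read 12.59, 12.64, 12.68 and 12.64 in Dicer knockout arrays, against 12.74, 12.85, 12.73 and 12.86 in wild-type arrays. Those groups did not overlap, and the difference of -0.16 missed the threshold (adjusted p = 0.151). The next read 11.19, 10.88, 11.13 and 11.04 in knockout arrays, against 11.53, 11.65, 11.39 and 11.39 in wild-type arrays. This one fell by 0.43 (SE 0.0942, adjusted p = 0.0128). Over the 6 probe sets that fell the changes ran from -0.42 to -0.90, the largest at a signal of 6.13 ± 0.191 in knockout and 7.03 ± 0.11 in wild type (adjusted p = 0.00045). The dimmest of them had a signal under 5 in both groups. In all 7 Usp9x probe sets the groups were apart. Probe sets of 1 gene share their RNA and are not replicates.

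Usp7, the protease of Mdm2, p53 and Dnmt1, rose in 3 of 7 probe sets. The brightest read 13.64, 13.60, 13.59 and 13.68 in Dicer knockout arrays, against 13.54, 13.54, 13.49 and 13.59 in wild-type arrays, and differed by 0.09 (adjusted p = 0.414). The groups were apart by less than 0.01. Another bright probe set read 12.85, 13.06, 12.97 and 12.88 in knockout arrays, against 12.60, 12.45, 12.47 and 12.46 in wild-type arrays. That probe set rose by 0.45, or 1.36-fold (SE 0.0746, adjusted p = 0.00323), and the other two that passed rose by 0.43 and 0.57. The remaining 3 differed by -0.09, 0.02 and 0.28 and did not pass, so the Usp7 probe sets disagreed.

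In the other genes added, the probe set that passed was a dimmer one. Usp27x is given above. Usp47, which acts in base excision repair, fell by 0.34 in its second probe set (10.43 ± 0.107 in knockout, 10.77 ± 0.0763 in wild type, adjusted p = 0.0169), and its brightest had non-overlapping groups and a difference of -0.18 (adjusted p = 0.166). Its dimmest, with a signal under 5 in both groups, had the opposite sign, a difference of 0.29 that did not pass (adjusted p = 0.0657). Usp34 fell by 1.29 in a probe set that read 6.03 ± 0.256 in knockout and 7.32 ± 0.398 in wild type, while its 2 bright ones differed by -0.10 and -0.07. Usp29 rose by 0.48 in a probe set at 5.28 ± 0.0971 in knockout and 4.80 ± 0.165 in wild type, against the sign of its brighter one (-0.21). With all probe sets of a gene averaged, 2 Usp genes rose (Usp7, by 0.25, and Usp14) and 7 fell (Usp9x, by 0.48, Usp34, Usp27x, Usp5, Usp6nl, Usp33 and Usp39), while Usp12, Usp3 and Usp42 no longer passed, beside 9.15% of all genes higher and 12.9% lower.

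**Figure D3:**
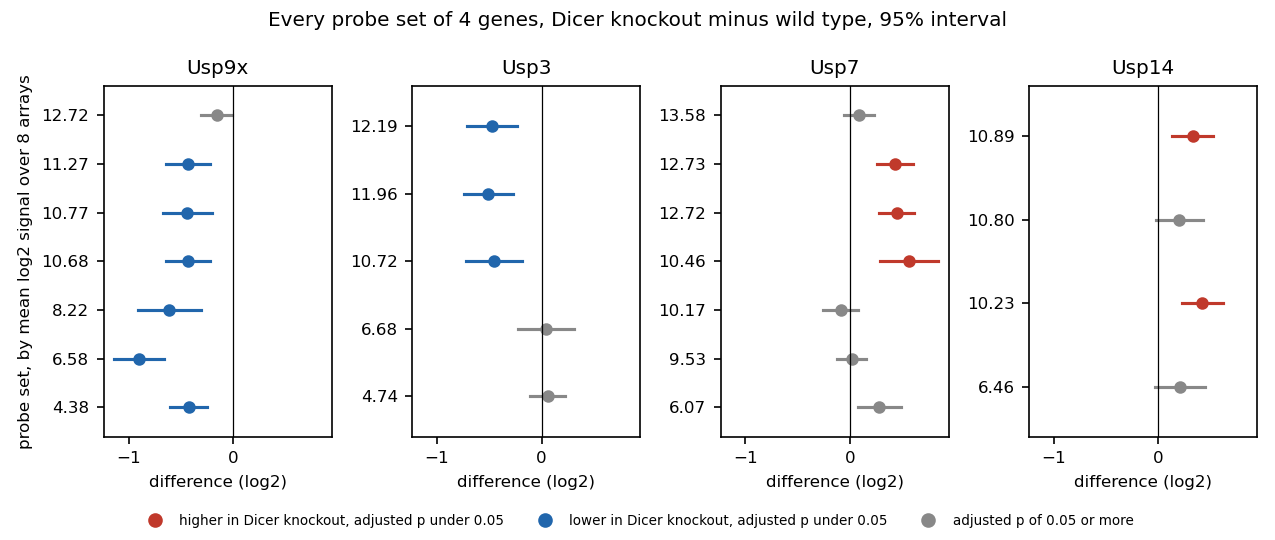
Difference in log2 signal, Dicer knockout minus wild type, for each probe set of Usp9x, Usp3, Usp7 and Usp14, ordered by mean signal over 8 arrays (brightest on top, value on the axis), with 95% intervals. The probe sets of Usp9x lie below 0 and 6 of 7 pass, while those of Usp7 run from -0.09 to 0.57.

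The stretches just before the transcription start are shown for Usp7 and Usp3, whose changes were seen in 3 probe sets each, and for Usp12 and Usp6nl, which had the largest rise and the largest fall of the set. Each holds the 250 bases upstream of a RefSeq start in build GRCm38.p6, written 5′ to 3′ on the gene's strand, with GC boxes (GGGCGG or its complement CCGCCC) and CCAAT boxes (CCAAT or ATTGG) in capitals.
Usp7 (chr16:8738343-8738592, minus strand): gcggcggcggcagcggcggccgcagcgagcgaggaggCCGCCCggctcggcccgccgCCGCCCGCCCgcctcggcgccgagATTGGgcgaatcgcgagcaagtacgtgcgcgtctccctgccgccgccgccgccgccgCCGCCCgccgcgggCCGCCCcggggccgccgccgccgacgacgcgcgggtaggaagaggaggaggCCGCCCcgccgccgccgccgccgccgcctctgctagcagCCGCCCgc
Usp3 (chr9:66593116-66593365, minus strand): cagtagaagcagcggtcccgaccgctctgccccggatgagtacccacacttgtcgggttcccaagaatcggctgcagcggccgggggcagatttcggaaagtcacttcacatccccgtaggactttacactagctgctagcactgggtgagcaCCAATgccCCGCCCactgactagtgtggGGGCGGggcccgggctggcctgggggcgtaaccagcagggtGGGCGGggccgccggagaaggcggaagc
Usp12 (chr5:146794957-146795206, minus strand): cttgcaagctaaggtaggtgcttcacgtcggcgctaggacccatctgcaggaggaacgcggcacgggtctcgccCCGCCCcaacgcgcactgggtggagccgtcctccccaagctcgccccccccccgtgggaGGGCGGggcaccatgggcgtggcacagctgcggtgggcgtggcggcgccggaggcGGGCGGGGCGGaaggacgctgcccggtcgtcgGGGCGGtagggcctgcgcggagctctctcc
Usp6nl (chr2:6322507-6322756, plus strand): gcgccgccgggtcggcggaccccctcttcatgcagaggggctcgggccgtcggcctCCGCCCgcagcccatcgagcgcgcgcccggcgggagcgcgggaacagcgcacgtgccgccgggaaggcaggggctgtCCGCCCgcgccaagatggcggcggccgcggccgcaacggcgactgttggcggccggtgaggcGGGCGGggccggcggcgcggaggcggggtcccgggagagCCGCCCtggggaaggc
Usp6nl has another listed start, whose window is not printed and holds 1 GC box at a GC content of 48.8%. Which start oocytes use was not tested. The printed windows hold 7 GC boxes in Usp7, 3 in Usp3, 5 in Usp12 and 4 in Usp6nl, overlapping matches included. Their GC content runs from 66% in Usp3 to 85.2% in Usp7. Windows were matched by symbol for 38 of the 50 Usp genes (39 windows). Of these 39 windows, 64.1% held a GC box on either strand, against 42.6% of 21263 windows of protein-coding genes. A CCAAT box was held by 25.6%, against 35.4%. The median GC content was 64.8% in Usp windows and 55.6% in those of protein-coding genes. GC boxes were found for Usp12, which rose, and for Usp3 and Usp6nl, which fell. They were also found for Usp7, which rose in 3 of 7 probe sets but not in its brightest. A match of letters is a description, not a bound site.

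Closely related Usp genes were compared by their changes. For 16 pairs with both genes measured, the difference between relatives was taken on each array and compared between genotypes by an exact two-sided permutation test. Usp20 and Usp33 were furthest apart. Usp20 minus Usp33 was 0.78, 0.92, 0.70 and 0.46 in the 4 Dicer knockout arrays, against -0.26, -0.22, -0.29 and -0.01 in the 4 wild-type arrays. Every knockout array lay above every wild-type array, and the changes of the relatives differed by 0.91 ± 0.116 (SE, n = 4 and 4). Unlike those of limma, the SEs of pairs come from the spread within the groups alone. The exact two-sided permutation p was 0.0286, the smallest that 4 against 4 arrays can give, and 0.286 after Benjamini-Hochberg adjustment over the 16 pairs.

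None of the 16 pairs passed after adjustment, and at this size at least 10 pairs would have to reach the smallest p for any to pass. Unadjusted, Usp20 with Usp33 was the 1 pair under 0.05. Usp22 and Usp27x differed in their changes by 0.45 ± 0.157 (exact two-sided permutation p = 0.0571). Usp12 and Usp46 differed by 0.58 ± 0.257 and Usp25 and Usp28 by 0.27 ± 0.124 (exact two-sided permutation p = 0.0857 each). All pairs were read by the brightest probe set of each gene. By these, changes lay within 0.1 of each other for Usp5 and Usp13, Usp36 and Usp42, and Usp4 and Usp11. The same held for Usp26 and Usp29 and for Usp9x and Usp24. In 6 other probe sets, however, Usp9x changed by -0.42 to -0.90. Another probe set of Usp24 differed by 0.35 and another of Usp29 by 0.48. The other Usp12 probe sets differed by -0.40 and -0.03, against the sign of the one used. Those of Usp20 differed by 0.09 to 0.15, less than the one used.

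**Figure D4:**
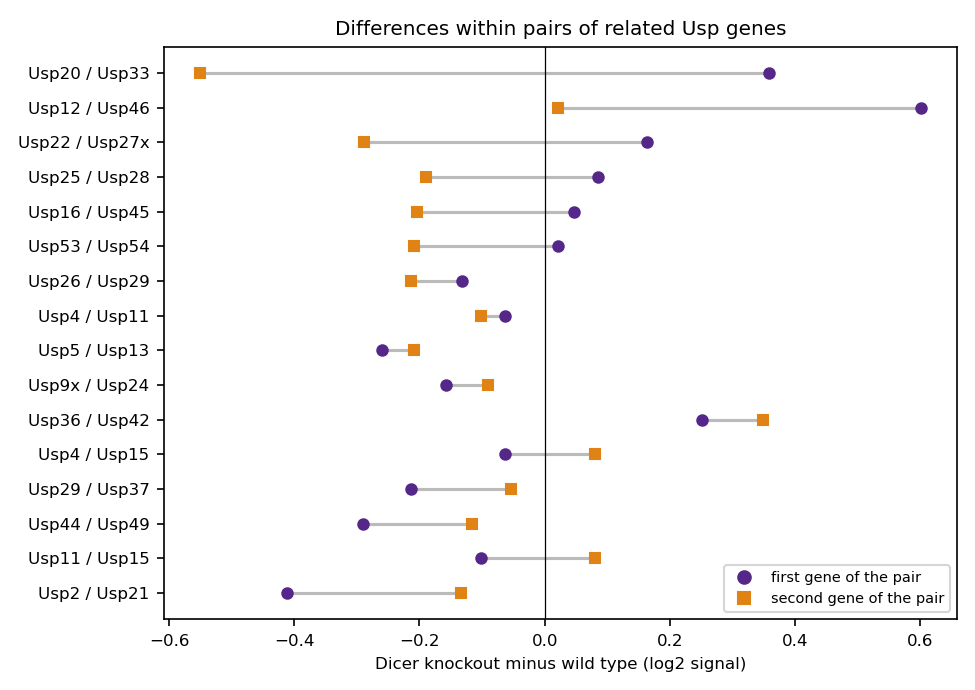
Difference in log2 signal, Dicer knockout minus wild type, for both genes of 16 pairs of related Usp genes (circle for the first gene named, square for the second, n = 4 and 4 arrays). The line between Usp20 (0.36) and Usp33 (-0.55) is the longest, and none of the pairs passed after adjustment.

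Other deubiquitinases were read in the same fit. Over all genes, 8.18% rose and 12.8% fell. Of 37 measured genes of the UCH, OTU, Josephin, JAMM, MINDY and related families, 3 rose, 3 fell and 31 did not pass. Their median difference was -0.06. Those that rose were Uchl4, Cyld and Brcc3, and those that fell were Mindy2, Bap1 and Vcpip1. A change larger than any of a Usp gene was seen in Cyld, a USP-type protease of linear and K63-linked chains whose name carries no Usp number. Cyld read 10.70, 9.97, 10.37 and 10.54 in the 4 Dicer knockout arrays, against 7.98, 6.75, 6.17 and 6.44 in the 4 wild-type arrays. Wild-type array 1 was the highest of its group and still far below the knockout arrays. The rise was 3.56 ± 0.347 (SE), or 11.8-fold (adjusted p = 0.00016), and 4.15-fold in a second probe set (adjusted p = 0.000814), while the other two of its 4 probe sets differed by 0.13 and 0.23 and did not pass.

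Uchl4, a near copy of Uchl3, read 7.92, 7.48, 7.81 and 7.74 in knockout arrays, against 5.02, 3.48, 3.38 and 3.30 in wild-type arrays, again with wild-type array 1 highest. Uchl4 passed the test (adjusted p = 8.43e-05), but 3 of its 4 wild-type values were under 5, a dim signal, so no fold is given. A brighter probe set assigned to both Uchl4 and Uchl3 fell by 0.69 (adjusted p = 0.00253), so a change of Uchl4 itself is uncertain. Mindy2 fell by 0.80. Bap1, a nuclear H2A deubiquitinase, fell by 0.34, while its other probe set differed by -0.13 and did not pass. Vcpip1 fell by 0.32 in its brightest probe set alone, and its next brightest differed by -0.04. Brcc3, which cuts K63-linked chains, rose by 0.29 while another of its probe sets differed by -0.35.

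Among 15 measured partners and substrates of Usp enzymes, 2 rose and 3 fell, beside 8.18% and 12.8% of all genes. Both WD-repeat activators of Usp12 and Usp46 fell in their brightest probe set. Wdr48 averaged 11.16 ± 0.0888 in knockout and 11.42 ± 0.0727 in wild type (adjusted p = 0.0422). Its other 3 probe sets did not pass. Wdr20 averaged 13.31 ± 0.037 and 13.59 ± 0.0603 (adjusted p = 0.0169). The other Wdr20 probe sets differed by -0.21 and 0.02 and did not pass. The substrates of Usp1 went apart in their brightest probe sets. Fancd2 rose by 0.36 (adjusted p = 0.0193), its partner Fanci fell by 0.84 (adjusted p = 0.00355), and Pcna differed by 0.09. Another Fancd2 probe set rose by 0.28, while the remaining ones differed by 0.21 and -0.19 and did not pass. The second Fanci probe set differed by -0.24 and did not pass. Stam, the endosomal partner of Usp8, rose by 0.32, while its other probe sets differed by 0.11 to 0.29 and did not pass. G3bp1 and G3bp2, partners of Usp10, and Atxn7, Atxn7l3 and Eny2, which hold Usp22 in SAGA, did not pass. Of the ubiquitin-activating enzymes, Uba6 rose by 0.56, or 1.47-fold (adjusted p = 0.0111), in 3 of its 5 probe sets, and Uba7 differed by 0.07.

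The calls of Usp33, Usp39 and Usp3 held whichever of the 8 arrays was left out, and those of Usp12, Usp14, Usp42 and Usp6nl did not. Usp42 lost its call without knockout array 1, 3 or 4 or wild-type array 1, 3 or 4, and Usp14 without knockout array 1 or 4 or wild-type array 1, 2 or 3. Usp6nl lost it without knockout array 2 or 3 or wild-type array 1 or 2, and Usp12 without wild-type array 2, 3 or 4. Their adjusted p then reached at most 0.106, and all 4 kept their direction. Without wild-type array 1, the highest wild-type array for Cyld and Uchl4, 1 Usp gene rose and 4 fell.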

How the data were processed

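Transcript levels of 4 Dicer knockout and 4 wild-type mice, grouped by the genotype label, were read from 8 Affymetrix arrays. The authors deposited log2 signals, made with RMA and Partek (versions not stated) per the submitters' processing notes. RMA tends to compress signals near background, and amplification from the poly(A) tail favours 3′ ends. None of the 45101 rows had a missing value, and every column belonged to 1 of the 8 samples. Each mouse is a separate sample in the labels, and no arrays were identical.

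Of 45037 probe sets that are not controls, 34945 had 1 symbol in the platform annotation, 932 several and 9160 none listed. Of the 50 Usp genes, 49 carried the same symbol in the RefSeq table of GRCm38.p6. Knockout minus wild type was estimated by lmFit and eBayes of limma 3.58.1 (R 4.3.3, no covariates) on all 45037 probe sets, with Benjamini-Hochberg adjustment over them and adjusted p under 0.05 as passing. Rose and fell refer to this test. Folds were taken from the log2 differences. The fit was tested on simulated data. Pairs of relatives were compared over 70 arrangements of the arrays.

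The members and gene lists were chosen with earlier results of these data known. All Usp genes were named. Array values are given for those past the threshold, the 3 brightest and, chosen after their values were seen, probe sets of Usp9x and Usp7. In the other lists, genes past the threshold were named. Alternatives tried were 3 scalings, dropping dim probe sets, another variance model, array weights, the title number as a random block, averaged probe sets, no probe sets with suffixes, adjustment over representative probe sets, and leaving out each array.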

Additional observations from a re-analysis of the deposited data

Results flagged for a closer look

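In each group of 4 arrays, the values of the 50 Usp genes were searched for a single array far from the other 3, with the distance to its closest neighbour divided by the range of the 4. Of 100 sets of 4 values, 2 had such an array, where chance gives about 5. Usp46os2 read 7.78 on Dicer knockout array 2 and 7.16 to 7.24 on the other knockout arrays. Usp49 read 11.42 on wild-type array 2 and between 11.53 and 11.55 on the remaining wild-type arrays. Neither gene passed the threshold.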

How the results depend on the processing

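The count of Usp genes that rose was 3 and that of genes that fell was 4. With equal array medians 1 rose, with all probe sets of a gene averaged 7 fell, and without probe sets with suffixes 2 fell, since Usp33 had no probe set left and Usp39 was read by its second, which did not pass. Leaving out single arrays gave 0 to 3 genes that rose and 3 to 5 that fell. The count that rose was 1 without knockout array 1, wild-type array 1 or wild-type array 4, and 0 without wild-type array 3. The cause was not tested. Under the remaining settings 2 to 4 genes rose and 4 to 6 fell. The number of Usp genes with any probe set past the threshold, a count chosen after seeing the data, was 13 and lay between 11 and 15 under all settings tried for it. Usp9x fell in 5 or 6 probe sets, Usp7 rose in 3 and Usp3 fell in 2 or 3 under the same settings. Over the 7 Usp genes that passed and all settings, the call was kept in 101 cases and lost in 24, and the direction never changed. For genes that did not pass, a call was gained in 20 cases. No pair of relatives passed under any setting tried. With all arrays, at least 10 of the 16 pairs would have to reach the smallest exact p for any to pass. The lack of passing pairs could therefore hardly change, and it does not show that the pair results are stable. Array weights and the title number as a random block (consensus correlation -0.0778, with 2 numbers shared by both genotypes) changed neither count by over 1.5 times. The scalings moved the median difference of all genes by -0.03 to 0.03. Signals under 5 in 4 Usp genes and 4 arrays per group limit what could be detected.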
